A study of Mus musculus with 7 samples.

Results

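The genes described here are 5 interferon-inducible ADP-ribosyltransferases, Parp9, Parp10, Parp11, Parp12 and Parp14, and Dtx3l, the ubiquitin ligase that binds PARP9. They were taken by symbol, through the mouse Entrez numbers of the deposited table, and all 6 were found among its 27179 genes. Their RNA was measured by sequencing in whole ankles, freed of skin, of DBA1 mice. In 4 ankles the joint had been injected with a lipoplex, a lipid carrier, holding a miR-17-5p mimic (mimic replicates 1, 2, 4 and 5). In 3 ankles the lipoplex held an irrelevant microRNA (control replicates 2, 3 and 5). All 7 ankles came from mice with collagen-induced arthritis, in which immunisation against collagen inflames the joints, so neither a healthy nor an uninjected ankle is part of the comparison. Age, sex, the time after injection and the number of mice are not stated in the labels, so an ankle cannot be tied to a mouse, and the p-values below rest on the spread between libraries, which may be technical.

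ADP-ribosyltransferases of the PARP family move ADP-ribose from NAD onto proteins, as long chains in the case of PARP1, PARP2 and the tankyrases and as single units by most other members. The genes described here are switched on by interferons through STAT and IRF factors in many cell types, and their products are studied as antiviral proteins and as modifiers of macrophage and cytokine responses. PARP9 pairs with DTX3L in a complex that attaches ADP-ribose to ubiquitin.

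The microRNA is shown because it is what distinguished the groups. Mouse miR-17-5p, encoded on chromosome 14 (115043684 to 115043706, plus strand, RefSeq, GRCm38.p6), has 23 bases, with the seed, bases 2 to 8, in capitals. The labels do not give the exact sequence of the injected mimic.
mmu-miR-17-5p: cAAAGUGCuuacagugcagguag
Sites that pair with this seed, the 8mer GCACTTTA and the 7mers GCACTTT and CACTTTA, were looked for in 3 prime UTRs, taking for each gene its longest annotated one. They were found in 0 of the 6 genes, whose 3 prime UTRs ran from 299 bases (Parp10) to 2788 bases (Dtx3l). The same search found at least 1 such site in 2670 of 12489 tested genes with a 3 prime UTR (21.4%), whose median length was 1145 bases. The absence of these letters from the annotated 3 prime UTRs says nothing of other kinds of pairing.

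Parp14, Dtx3l and Parp9 lie next to each other on chromosome 16 of mm10, at 35832878 to 35871382 (minus strand), 35926515 to 35939027 (minus strand) and 35938470 to 35972621 (plus strand). Dtx3l and Parp9 start head to head: the first exon of Dtx3l, 334 bases long (35938694 to 35939027), lies wholly inside the first exon of Parp9, 591 bases long (35938470 to 35939060). These shared bases are 6.45% of the exon length of Dtx3l and 9.37% of that of Parp9. Whether the counting used strand is not stated, so reads from the shared bases cannot be assigned to one gene. Parp10 lies on chromosome 15 (76232995 to 76243440, minus strand), and Parp12 (39086412 to 39118349, minus strand) and Parp11 (127453723 to 127494239, plus strand) lie far apart on chromosome 6.

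Start regions from RefSeq, reaching from 250 bases before to 50 bases after an annotated start, were available for 3 of the genes, Parp11 (2 starts), Parp12 and Dtx3l. Those of Parp9, Parp10 and Parp14 were not used here. The core of the interferon-stimulated response element, a DNA element found near many interferon-induced genes, was searched on both strands as GAAA and GAAA separated by any 2 bases. It matched in 1 of the 4 windows, 44 bases before the upstream start of Parp11, against 3.44% of 32851 windows genome-wide. That upstream start lies outside the exons of Parp11 in the deposited table. A second motif, TTC and GAA separated by any 3 bases, the core of the gamma-activated site bound by STAT dimers, matched in the same window 37 bases before the start, against 8.30% of all windows. Both matches are descriptions of letters, they share 3 bases, and their use in these ankles was not measured. The Parp11 window is shown with the first match, which on this strand reads TTTC, 2 bases and TTTC, in capitals, and the Dtx3l window, which held neither motif, with the 83 bases that are also the first exon of Parp9 in capitals.
Parp11, chr6:127446590-127446889, plus strand, GRCm38.p6: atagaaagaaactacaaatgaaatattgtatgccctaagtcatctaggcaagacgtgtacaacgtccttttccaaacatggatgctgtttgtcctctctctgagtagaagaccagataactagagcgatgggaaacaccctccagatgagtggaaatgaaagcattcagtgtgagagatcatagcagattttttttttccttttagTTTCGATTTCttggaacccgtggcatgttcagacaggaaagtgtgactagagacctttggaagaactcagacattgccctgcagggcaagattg
Dtx3l, chr16:35938978-35939277, minus strand, GRCm38.p6: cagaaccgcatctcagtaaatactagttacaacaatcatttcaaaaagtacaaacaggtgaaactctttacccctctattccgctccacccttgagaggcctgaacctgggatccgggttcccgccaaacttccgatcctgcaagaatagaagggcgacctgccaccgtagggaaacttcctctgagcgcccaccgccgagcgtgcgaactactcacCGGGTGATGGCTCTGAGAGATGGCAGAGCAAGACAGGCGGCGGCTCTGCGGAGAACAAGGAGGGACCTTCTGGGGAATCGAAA

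The libraries held between 27465276 and 31118975 reads assigned to genes, and the 6 genes between 571 reads (Parp11) and 4480 reads (Parp14) in a library, so counting alone gave a standard deviation of at most 4.18% of a value. Defining markers of the joint were present in each library. Among them were Col2a1 of cartilage (44.6 to 62.3 FPKM in mimic, 26.5 to 39.4 FPKM in control ankles) and Prg4 of the synovial lining (859 to 1611 FPKM). The groups did not overlap for Col2a1. Control replicate 5 stood apart: its 6 keratinocyte markers summed to 80.6 FPKM, against 1.36 to 1.68 FPKM in mimic ankles and 1.04 and 1.13 FPKM in the other control ankles. FPKM scales the reads of a gene by its joined exon length and by the assigned reads of the library.

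All 6 genes had a higher mean in the mimic ankles, by 1.22 to 1.35 times, as did 48.3% of the 13418 genes tested. None passed the test over all genes, in which limma called 0 genes higher (0%) at an adjusted p under 0.05. At an unadjusted p under 0.05, 5 of the 6 genes were higher, the exception being Dtx3l, against 7.48% of genes tested. With limma-voom on recovered reads 0 genes passed as well, while 1003 genes were higher and 1353 lower at an unadjusted p under 0.05 in the first test. In 3 of the 6, Parp14, Parp10 and Parp11, every mimic ankle lay above every control ankle, against 6.48% of genes tested. In whole tissue, more RNA per cell and more cells of a type that expresses these genes cannot be told apart.

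**Figure D1:**
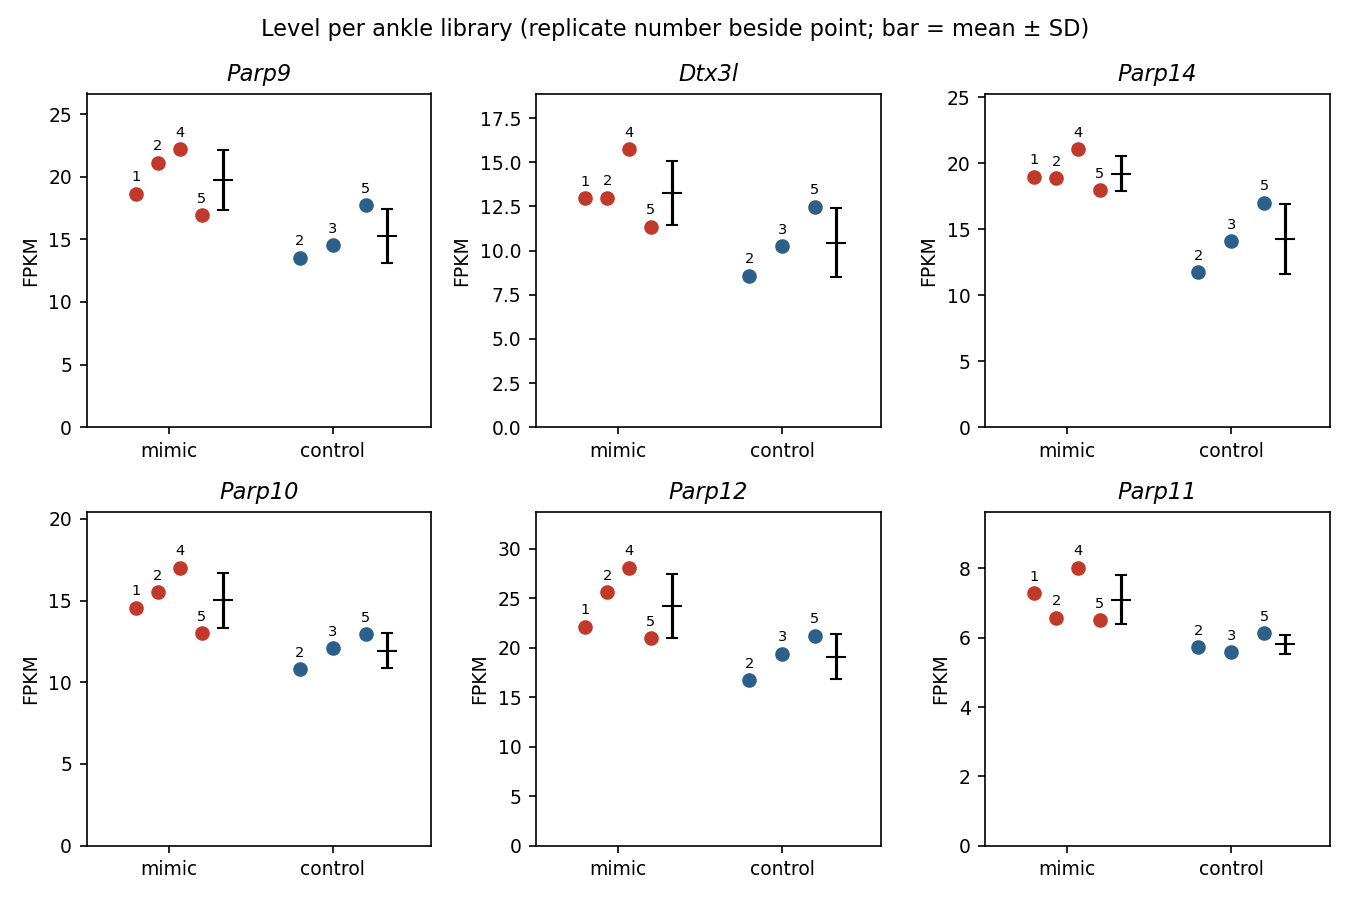
FPKM of each gene in the 4 mimic and 3 control libraries (points, with replicate number) with the mean and SD of each group (bars). The groups are apart for Parp14, Parp10 and Parp11, and in the other 3 genes mimic replicate 5 lies below control replicate 5.

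Parp9, a macrodomain protein that reads ADP-ribose and partners DTX3L, stood at 18.6, 21.1, 22.2 and 16.9 FPKM in mimic replicates 1, 2, 4 and 5, against 13.5, 14.5 and 17.7 FPKM in control replicates 2, 3 and 5. Mimic replicate 5 lay below control replicate 5, so the groups overlapped, and in 11 of 12 pairs of a mimic and a control ankle the mimic ankle was higher. The group means were 19.7 ± 2.38 FPKM (SD, n = 4) in mimic ankles and 15.3 ± 2.19 FPKM (SD, n = 3) in control ankles. The log2 fold change was 0.36 (SE 0.12), with an unadjusted limma p of 0.0202 and an adjusted p of 0.221.

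Dtx3l, a RING-type ligase of the deltex family, stood at 12.96, 12.99, 15.7 and 11.3 FPKM in mimic replicates 1, 2, 4 and 5, against 8.58, 10.3 and 12.5 FPKM in control replicates 2, 3 and 5. Here too mimic replicate 5 fell between the control ankles. The log2 fold change was 0.34 (SE 0.14), with an unadjusted limma p of 0.0512 and an adjusted p of 0.287, and the highest control ankle exceeded the lowest by 1.46 times, more than the 1.27 times between the group means.

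The balance between the partners was close in the groups. The ratio of Dtx3l to Parp9 FPKM was 0.695, 0.615, 0.709 and 0.669 in mimic replicates 1, 2, 4 and 5, against 0.633, 0.706 and 0.705 in control replicates 2, 3 and 5. It averaged 0.672 ± 0.0416 in mimic ankles and 0.681 ± 0.0415 in control ankles, and an exact 2-sided permutation test of the log2 ratio, over all 35 splits, gave p = 0.743, where the smallest possible p was 0.0286. The difference of the mean log2 ratio was -0.020, within the spread of a single group, and it changed sign when mimic replicate 2 (0.022), control replicate 3 (0.0068) or control replicate 5 (0.0058) was left out. The shared exon bases touch the values of both genes. By comparison, the level of Dtx3l itself spanned 1.84 times and that of Parp9 1.64 times over the 7 libraries.

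**Figure D2:**
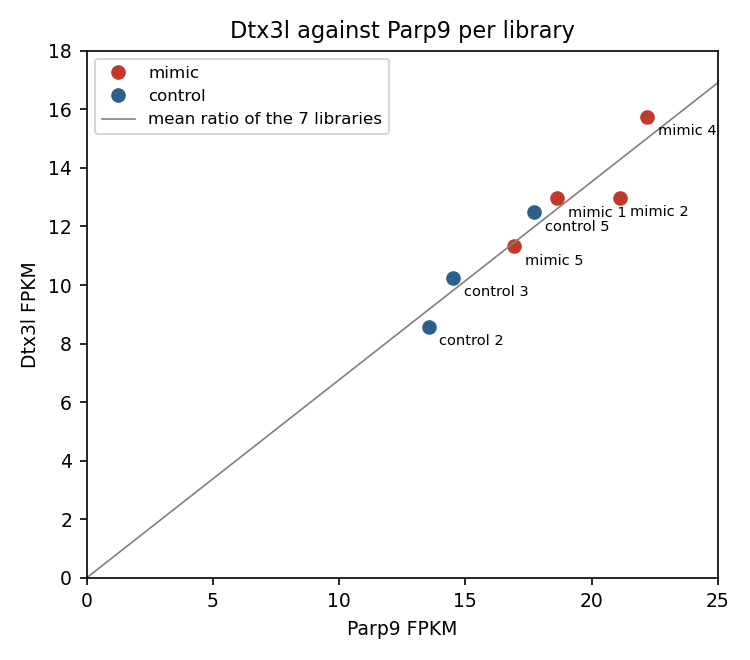
Dtx3l FPKM against Parp9 FPKM, 1 point per library, with a line at the mean ratio of the 7 libraries. Mimic and control libraries lie along the same line, with the ratio between 0.615 and 0.709 in mimic and between 0.633 and 0.706 in control libraries.

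Parp14, a macrodomain protein that transfers single ADP-ribose units and acts with STAT6 in interleukin-4 responses, had the largest difference of the 6. It stood at 19.0, 18.9, 21.1 and 17.9 FPKM in mimic replicates 1, 2, 4 and 5, against 11.7, 14.1 and 16.9999 FPKM in control replicates 2, 3 and 5. Every mimic ankle lay above every control ankle, although mimic replicate 5 and control replicate 5 were close. The means were 19.2 ± 1.33 FPKM (SD, n = 4) in mimic ankles and 14.3 ± 2.64 FPKM (SD, n = 3) in control ankles. The log2 fold change was 0.43 (SE 0.12), with an unadjusted limma p of 0.0086 and an adjusted p of 0.183. Its mimic ankles spanned 1.17 times, the narrowest span of the 6 genes in that group, and its control ankles 1.45 times.

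Parp10, a transferase of single ADP-ribose units with ubiquitin-binding motifs, stood at 14.6, 15.5, 17.02 and 12.99 FPKM in mimic replicates 1, 2, 4 and 5, against 10.8, 12.1 and 12.94 FPKM in control replicates 2, 3 and 5. The groups did not overlap, but mimic replicate 5 exceeded control replicate 5 by less than the counting error of either. The log2 fold change was 0.32 (SE 0.10), with an unadjusted limma p of 0.0163 and an adjusted p of 0.213.

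Parp12, a zinc-finger and WWE-domain protein with antiviral activity, was the most abundant of the 6. It stood at 22.1, 25.6, 28.1 and 20.95 FPKM in mimic replicates 1, 2, 4 and 5, against 16.7, 19.4 and 21.19 FPKM in control replicates 2, 3 and 5. Mimic replicate 5 lay just below control replicate 5, so the groups overlapped. The log2 fold change was 0.33 (SE 0.12), with an unadjusted limma p of 0.0287 and an adjusted p of 0.242.

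Parp11, a WWE-domain enzyme reported to act on the turnover of the type I interferon receptor, was the least abundant and the least variable. It stood at 7.28, 6.58, 8.02 and 6.51 FPKM in mimic replicates 1, 2, 4 and 5, against 5.73, 5.58 and 6.12 FPKM in control replicates 2, 3 and 5. The groups did not overlap, and the control ankles spanned 1.10 times. The log2 fold change was 0.26 (SE 0.085), with an unadjusted limma p of 0.0163 and an adjusted p of 0.213. It had the smallest fold change of the 6 but the same p as Parp10, since its values were closer within a group.

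In order of mean FPKM the genes ran Parp12, Parp9, Parp14, Parp10, Dtx3l and Parp11, in mimic and in control ankles alike. Each gene exceeded the next in 7 of 7 libraries, except that Parp9 exceeded Parp14 in 5 of 7, so this pair did not differ beyond its spread. FPKM is already per length, although it depends on the exon length the table assigns to each gene.

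The 6 genes followed a common order of libraries. Mimic replicate 4 had the highest level of all 6 genes, and mimic replicates 1 and 2 held the 2nd and 3rd places for each. Mimic replicate 5 and control replicate 5 held the 4th and 5th places for each gene, and control replicates 2 and 3 the last places, control replicate 2 being lowest for 5 genes and control replicate 3 for Parp11. Averaged over the 6 genes, the deviation from the gene mean on the log2 scale was 0.33 in mimic replicate 4, -0.023 in mimic replicate 5, -0.014 in control replicate 5 and -0.36 in control replicate 2. The groups therefore met at their replicates numbered 5 and were far apart at mimic replicate 4 and control replicate 2.

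**Figure D3:**
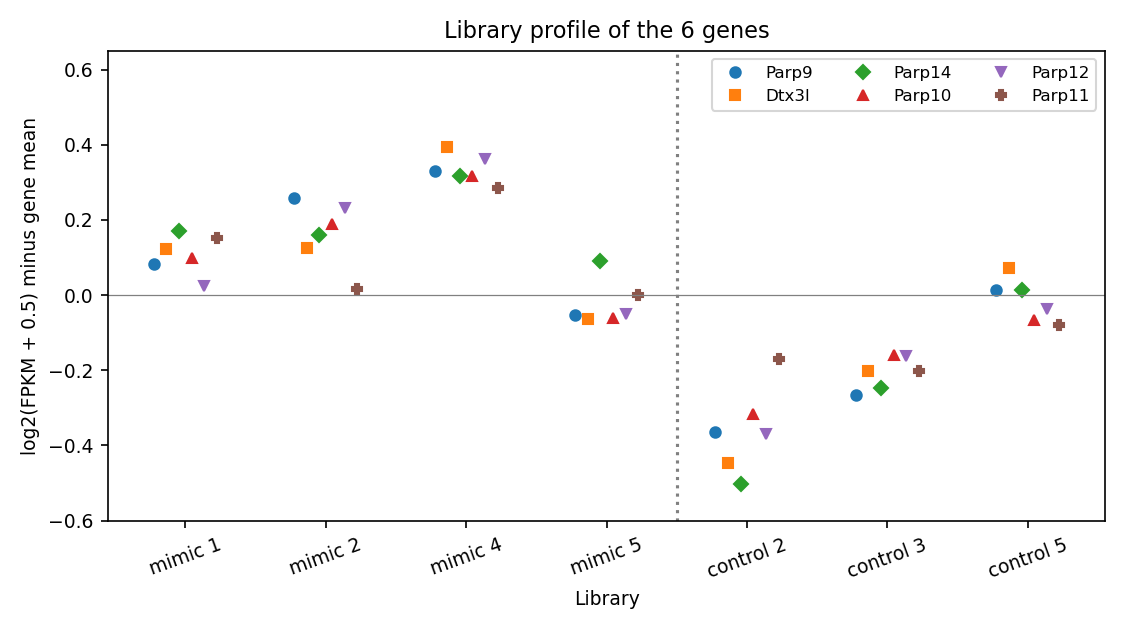
Deviation of each gene from its own mean on the log2(FPKM + 0.5) scale in each library, with mimic libraries left of the dotted line and control libraries right of it. Mimic replicate 4 lies highest for all 6 genes and control replicates 2 and 3 lie lowest.

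The genes whose library profile lay nearest to the mean profile of the 6 were, apart from the 6 themselves, Sp100, Oas1c, Adar, Samd9l, Znfx1, Ifih1, Eif2ak2 and AA465934. Likeness was the root mean square distance between profiles over the 7 libraries in log2 units, which was 0.035 for Sp100, a nuclear body protein, and 0.073 for AA465934. Adar, an RNA-editing enzyme, Ifih1, an RNA sensor, and Eif2ak2, an RNA-activated kinase, lay at 0.058, 0.070 and 0.072. The 6 genes, which define the profile, lay between 0.036 (Parp10) and 0.099 (Parp11). Sp100 stood at 30.9 ± 3.32 FPKM in mimic ankles and 23.6 ± 2.70 FPKM in control ankles, with a log2 fold change of 0.38, SE 0.11 and limma adjusted p = 0.182. The log2 fold changes of the other 7 ran from 0.27 (Eif2ak2) to 0.46 (Ifih1), and none passed over all genes. Sp100 and the other 7 were picked by likeness over the same libraries, so fold changes near those of the 6 follow from the choice. These fold changes are therefore not separate support for a difference between the groups.

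Beyond the 6 genes, the PARP family did not share the difference in one direction. Of 11 other members tested, 4 had a higher and 7 a lower mean in mimic ankles. Their median log2 fold change was -0.070, against 0.33 for the 6 genes and -0.0063 for all genes tested. The difference between these lists was not tested. None of the 11 passed over all genes, and 2 were higher at an unadjusted p under 0.05, against 7.48% of genes tested. These were Parp3, which acts at DNA breaks, at 34.6 ± 1.67 FPKM in mimic and 30.8 ± 0.415 FPKM in control ankles (log2 fold change 0.16, SE 0.056, limma adjusted p = 0.220), and Parp16, of the endoplasmic reticulum, with 0.19 (SE 0.077, limma adjusted p = 0.263). Parp6 had 0.18 (SE 0.087). Every mimic ankle lay above every control ankle for Parp3 and Parp16, and below for Parp2, a DNA repair enzyme named here after its value was seen (log2 fold change -0.096, SE 0.052), against 8.84% of genes tested with that pattern. Zc3hav1, which encodes an antiviral zinc-finger protein of the family without transferase activity and is itself known to respond to interferon, was also singled out after its value was seen. It stood at 11.1 ± 0.931 FPKM in mimic and 11.3 ± 1.65 FPKM in control ankles, a log2 fold change of -0.019 (SE 0.11).

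**Figure D4:**
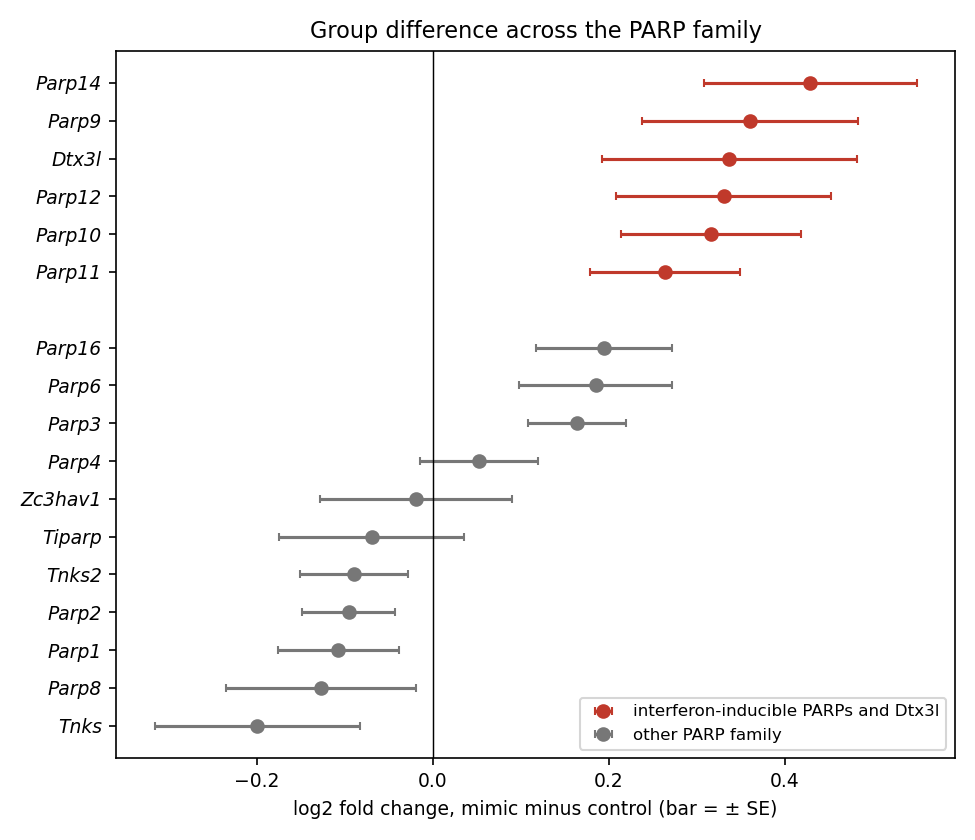
Log2 fold change (mimic minus control) with its standard error for the 6 genes (red) and 11 other PARP family members (grey). The 6 genes lie between 0.26 and 0.43 and the others between -0.20 and 0.19.

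Enzymes that remove ADP-ribose did not share a direction. Of 6 tested, 3 had a higher and 3 a lower mean. Their median log2 fold change was 0.023, and none had an unadjusted p under 0.05. Those with the smallest p were Nudt16, with a log2 fold change of 0.15 (SE 0.12), Adprh, which frees arginine residues of ADP-ribose, with -0.069 (SE 0.053), and Macrod1, a mitochondrial hydrolase, with 0.44 (SE 0.42). Macrod1 stood at 29.7 ± 12.8 FPKM in mimic and 21.7 ± 10.6 FPKM in control ankles, and its sign turned with the skeletal muscle markers as a covariate (-0.18). The deltex ligases other than Dtx3l had a median of -0.094 over 3 tested, with none at an unadjusted p under 0.05. Dtx3 had 0.25 (SE 0.11), Dtx2 -0.10 (SE 0.073) and Dtx4 -0.094 (SE 0.070).

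Among genes of NAD synthesis and use, the substrate supply of these enzymes, the median log2 fold change was 0.064 over 10 tested. At an unadjusted p under 0.05, 1 was higher and 1 lower (10.1% of genes tested were lower at that p), and none passed over all genes. Nampt, the rate-limiting enzyme of NAD salvage, stood at 19.4 ± 1.84 FPKM in mimic and 16.7 ± 0.402 FPKM in control ankles (log2 fold change 0.20, SE 0.081, limma adjusted p = 0.266). Nadk, which turns NAD into NADP, stood at 48.4 ± 4.53 FPKM in mimic and 57.6 ± 5.78 FPKM in control ankles (-0.25, SE 0.099, limma adjusted p = 0.261). Naprt, which makes NAD from nicotinic acid, had 0.12 (SE 0.053).

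Upstream of the 6 genes, the transducers of interferon signals differed in both directions, 4 higher and 4 lower of 14 tested at an unadjusted p under 0.05, against 7.48% and 10.1% of all genes tested, and none past the test over all genes. Their median log2 fold change was -0.011. Stat2 and Irf9, factors of the type I interferon response, stood at 31.1 ± 4.93 and 35.5 ± 3.36 FPKM in mimic ankles, against 19.8 ± 2.10 and 25.5 ± 3.76 FPKM in control ankles. Their log2 fold changes were 0.63 (SE 0.13) and 0.48 (SE 0.11), and that of Irf7, an interferon-inducible factor, was 1.28 (SE 0.34). The 4 lower ones, named here after their values were seen, were the interferon receptor chains Ifnar1 (-0.27, SE 0.090), Ifngr1 (-0.24, SE 0.098) and Ifngr2 (-0.29, SE 0.082) and the kinase Jak2 (-0.34, SE 0.12). For Ifnar1 and Ifngr2 every mimic ankle lay below every control ankle, as for 8.84% of all genes tested. With all 7 libraries the limma adjusted p of Jak2 was 0.236, and the groups overlapped. Without control replicate 2 its log2 fold change was -0.49 and its limma adjusted p was 0.0418. In that fit 203 of 13418 genes tested were lower at an adjusted p under 0.05. Transcripts of the 8 interferon genes looked up were at the edge of detection, and other interferon genes were not looked up. Of the 8, 6 (Ifnb1, Ifna2, Ifna4, Ifnl2, Ifnl3 and Ifnk) had no read in any library, where a count of 0 allows up to 3 reads, counting error only. Ifng had 5, 2, 0 and 4 reads in mimic replicates 1, 2, 4 and 5 and 0, 1 and 4 reads in control replicates 2, 3 and 5. Ifne had 3 reads in all. Counts of these 8 genes were too low to compare the groups or single libraries, and no test was run on them.

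Genes beside the chromosome 16 cluster were compared as nearest neighbours. Before the cluster, the log2 fold change of Slc49a4 was 0.20 (SE 0.11) and that of Hspbap1 0.077 (SE 0.094), while Sema5b, with mean FPKM of 0.573 in mimic and 0.535 in control ankles, was too low to be tested. After it, Kpna1 had -0.085 (SE 0.14), Wdr5b 0.058 (SE 0.12) and Fam162a -0.19 (SE 0.10). None of the 5 tested had an unadjusted p under 0.05, and the groups overlapped for each. Hspbap1, Kpna1 and Wdr5b changed sign under other processing. An entry without a symbol between Parp14 and Dtx3l averaged 0.144 FPKM in mimic and 0.0663 FPKM in control ankles.

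Markers of other cell types were summed per library beside these results, and their part in the results was not tested beyond the covariates given here. The 10 macrophage markers summed to between 1202 and 1597 FPKM in mimic and between 1375 and 1562 FPKM in control ankles, with overlap, and 5 of 10 had a higher mean in mimic ankles. With the macrophage list mean as a covariate the 6 log2 fold changes lay between 0.34 and 0.51, none past an adjusted p of 0.05. The 8 skeletal muscle markers summed to between 2224 and 8245 FPKM in mimic and between 935 and 5658 FPKM in control ankles, lowest in control replicate 5 and highest in mimic replicate 5. Adjusted for the mean of the muscle markers, the 6 fold changes lay between 0.33 and 0.58, and no adjusted p was under 0.168. The 10 neutrophil markers summed to between 1292 and 3254 FPKM in mimic and between 3042 and 6048 FPKM in control ankles. These sums overlapped through mimic replicate 1 (3254 FPKM), which lay above control replicate 2 (3042 FPKM). A higher mean in mimic ankles was seen in 0 of 10 neutrophil markers. Every mimic ankle lay below every control ankle for 2 of them, a pattern of 8.84% of genes tested. The 10 T and NK cell markers summed to between 20.2 and 33.9 FPKM in mimic and between 25.7 and 31.2 FPKM in control ankles, with overlap. Their mean was higher in mimic ankles for 0 of 10, and that of the skeletal muscle markers for 8 of 8.

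The remaining marker lists fell into those whose sums overlapped and those whose sums did not. Sums of the osteoclast list were lower in every mimic ankle (2068 to 2279 FPKM in mimic, 2601 to 2748 FPKM in control ankles). Those of the adipocyte list (826 to 1132 FPKM in mimic, 504 to 822 FPKM in control ankles) and of the osteoblast list (1016 to 1141 FPKM in mimic, 625 to 974 FPKM in control ankles) were higher in every mimic ankle. So was the list for plasmacytoid dendritic cells, strong producers of type I interferon (278 to 358 FPKM in mimic, 139 to 199 FPKM in control ankles). Most of that sum came from Bst2, which interferon itself induces, and from Cox6a2, which muscle also expresses. For 2 of its 6 markers, Bst2 among them, every mimic ankle lay above every control ankle, against 6.48% of genes tested. Klk1 and Ccr9 of that list averaged under 1 FPKM. Siglech, the defining receptor of plasmacytoid dendritic cells, stood at 2.72 to 4.00 FPKM in mimic and 1.99 to 3.81 FPKM in control ankles, with overlap. The endothelial, synovial fibroblast, cartilage, B and plasma cell and erythroid sums overlapped between the groups, at 234 to 261, 12941 to 14030, 824 to 956, 47.2 to 154 and 217 to 1718 FPKM in mimic ankles and 224 to 249, 11983 to 14335, 762 to 867, 51.8 to 87.6 and 153 to 655 FPKM in control ankles. In the same order, 4 of 6, 2 of 8, 7 of 8, 8 of 8 and 6 of 6 markers had a higher mean in mimic ankles. For the osteoclast, adipocyte, osteoblast and plasmacytoid dendritic cell lists these counts were 0 of 8, 7 of 7, 7 of 7 and 5 of 6.

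The direction held under every alternative tried: 102 of 102 log2 fold changes of the 6 genes, over 17 alternatives, were above 0, from 0.13 to 0.58. All were fits to the same libraries, so they are not separate support for the direction. Other filters on low values could not alter a fold change. Leaving out a library could not turn the sign for Parp14, Parp10 and Parp11, whose groups did not overlap. The sizes, and the number of genes at an unadjusted p under 0.05, depended on which libraries were kept. Without control replicate 2, the ankle with the lowest levels for 5 of the 6, the 6 fold changes were 0.21 to 0.30, and 2 of the 6 had an unadjusted p under 0.05, against 13.2% of genes tested. In that fit 0.857% of genes tested were higher at an adjusted p under 0.05, none of the 6 among them, and the lowest adjusted p of the 6 was 0.112 (Parp14). Without control replicate 5, which held the keratinocyte signal, they were 0.30 to 0.56, with an unadjusted p under 0.05 for 6 of the 6, against 4.24% of genes tested, and no adjusted p under 0.465. Without control replicate 3 they were 0.24 to 0.43, with an unadjusted p under 0.05 for 2 of the 6, against 5.6% of genes tested. Dtx3l, Parp14 and Parp9 differed most between these fits, for example 0.21 without control replicate 2 and 0.47 without control replicate 5 for Dtx3l.

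**Figure D5:**
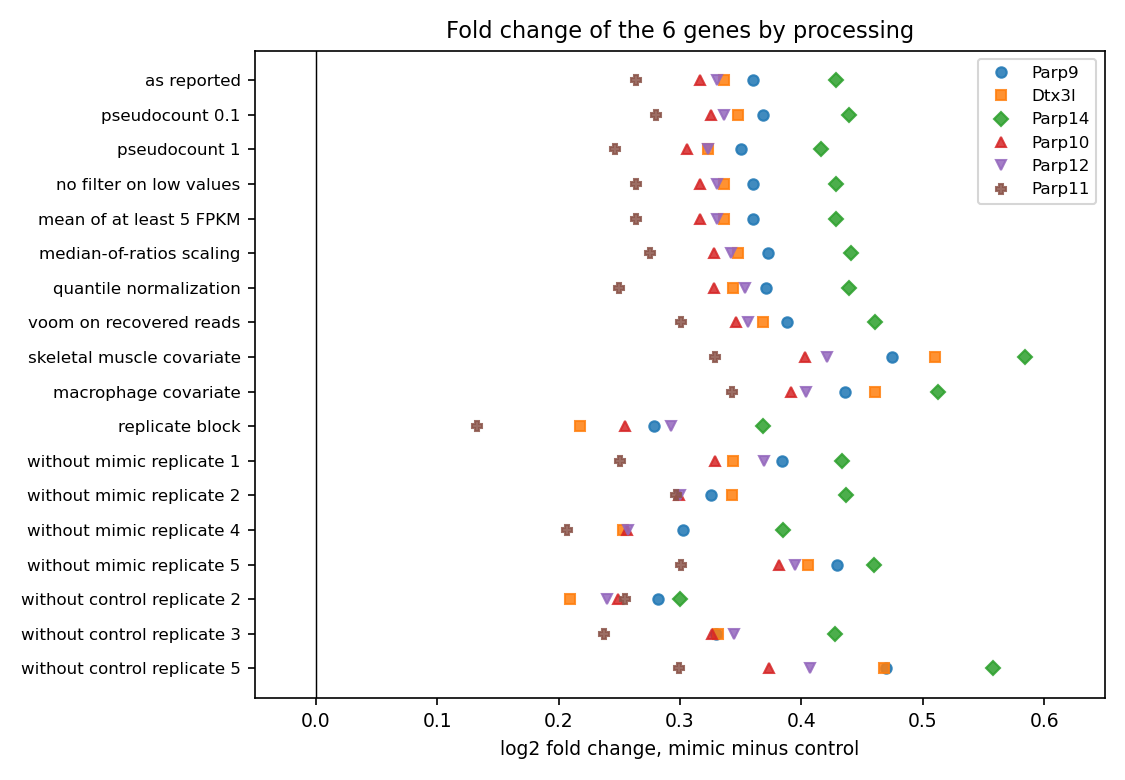
Log2 fold change (mimic minus control) of the 6 genes as reported and under 17 alternatives. All points lie right of 0, between 0.13 and 0.58, with the lowest under the replicate block and the highest with the skeletal muscle covariate.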

How the data were processed

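Values are FPKM per gene and library as the authors deposited them, per the file headers, with exon positions, joined exon length and an Entrez number for each gene. Tools listed in the submitters' processing notes, without their roles, are STAR 2.5.2b, bcl2fastq 2.20, DESeq2 1.14.1, Subread and featureCounts. The builds listed there are GRCm38 and mm10. Multiplied by length, 100% of values were whole multiples of 1 step per library to a tolerance of 0.01 reads, so reads and totals could be recovered. Over 21 pairs of libraries a chi-square of these reads was at least 17.6 per gene, so no pair looked like 1 library deposited again. This cannot tell separate mice from ankles of the same mouse, and the replicates are those of the labels.

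Symbols came from a RefSeq table of GRCm38.p6 (25275 of 27179 numbers matched), 3 prime UTRs from GENCODE M21. limma 3.58.1 in R 4.3.3 (lmFit, eBayes with trend) was fitted to log2(FPKM + 0.5) of the 13418 genes averaging 1 FPKM or more, with group as the single factor, mimic minus control, 2-sided, Benjamini-Hochberg over all genes. The + 0.5 understates changes of low genes. The scripts were tested on simulated data. Python 3.11.15 did the rest.

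The 6 genes and all lists were chosen with earlier results of these data known, so no p was adjusted over a list alone. Named beside the 6 genes were, per list, the 3 with the smallest p, the 8 nearest profiles passing over predicted genes, and the 3 nearest genes on each side of the chromosome 16 cluster. Of 172 list entries, 2 had no match. Alternatives were other pseudocounts, filters, scalings, voom on recovered reads, 2 marker covariates, the replicate number as a block and leaving out each library.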

Additional observations from a re-analysis of the deposited data

Results flagged for a closer look

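AA465934, one of the 8 genes with a profile near that of the interferon-inducible PARPs, stood at 6.20 FPKM in mimic replicate 5. The other mimic ankles stood at 6.93, 6.94 and 6.95 FPKM, so 1 library lay apart from others that were close together. It was the 1 such case among 53 sets of 4 mimic values screened. Chance gives about 1 in 20 sets, so 1 case in 53 is no more than chance gives.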

How the results depend on the processing

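All 6 genes stayed above 0 and without an adjusted p under 0.05 in 17 of 17 alternatives, which were fits to the same libraries. The count of genes called over all genes was 1 lower without a filter on low values, 12 higher with the macrophage covariate (among the named genes Irf7, 1.67, limma adjusted p = 0.0320), and from 0 to 115 higher and from 0 to 203 lower when 1 library was left out, the highest without control replicate 2. The median of the other PARP family was 0.016 with the muscle covariate, -0.033 with the macrophage covariate and -0.030 with the replicate block, and from -0.11 to -0.0022 when 1 library was left out. That of other deltex ligases was 0.071 without a filter, which added Dtx1, and that of NAD genes -0.065 among genes averaging 5 FPKM or more, where fewer were tested. The log2 difference of the Dtx3l to Parp9 ratio ran from -0.071 to 0.022 when 1 library was left out. Signs turned for Hspbap1 with quantile normalization (-0.00089) and the replicate block (-0.044), Macrod1 with the muscle covariate (-0.18), Nudt16 (-0.021) and Kpna1 (0.098) with the replicate block, and, leaving out 1 library, Kpna1 (-0.18 to 0.028) and Wdr5b (-0.019 to 0.14). The cause was not tested.

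The replicate numbers do not establish pairs, and only numbers 2 and 5 occur in both groups. The deviations of these same-numbered libraries from their group means correlated at 0.54 and -0.43 across genes. With 2 values of opposite sign, this cannot tell whether same-numbered libraries share more than a number. With the replicate block the 6 fold changes were 0.13 to 0.37, with 0 of 6 at an unadjusted p under 0.05. In that fit 2.97% of genes tested were higher at that p. Only numbers 2 and 5 inform its group difference, so the 0 of 6 cannot be read as a result about these genes. Depth did not limit the 6 genes, but the 8 interferon transcripts looked up lay at or near 0 reads.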
